A study of Mus musculus with 13 samples.

Results

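Chromosome 15 of the murine hepatoma line Hepa 1-6 held 23449 of the 231368 regions that 8 ChIP-Seq libraries gave over the whole genome. Its members were chosen by chromosome name alone, but the chromosome itself was chosen by the measured density of calls in these same lists, so its excess over other autosomes is given as a description and was not tested. ChIP-Seq sequences the DNA bound by an antibody and calls the places where reads pile up as peaks or enriched regions. Standard cultures gave the libraries of KAP1 and of the histone marks H3K27ac, H3K4me1 and H3K9me3. RNA polymerase II (PolII, C-terminal domain antibody) and RNA polymerase III (PolIII, RPC32 antibody) were profiled in cells fixed 5 days after they received a control short hairpin RNA or one against Kap1 (Kap1 KD). For the control the labels name a control hairpin and the study's methods an empty vector, and the same treatment text stands beside the libraries of standard culture. Each of the 8 groups was 1 library of a single cell line, so no replicate error exists, and the files give no read numbers, so the depth behind each list is unknown. The 5 input libraries were not analysed here, and the level of KAP1 left after the knockdown is not given by these lists. Intervals below are 95% intervals of counting error only (exact binomial for ratios, Wilson for shares).

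The origin of the line was checked against markers. H3K27ac lay over the promoters of 6 of 11 annotated records of hepatocyte markers (54.5%, against 20.6% of all autosomal promoters), among them Alb, Afp, Fgb and Hnf4a, and over 1 of 10 markers of blood, vessel, nerve, muscle and connective tissue (Col1a1). Control PolII and KAP1 lay over 0 of the 11 hepatocyte records (13.7% and 16.4% of all autosomal promoters). Kap1 KD PolII lay over 2 (24.2%), both of them records of the same gene, Trf. Apoa1, Apob and Ttr had no region of any list over the promoter.

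KAP1, the product of Trim28, is a corepressor that zinc finger proteins bring to DNA, where it can recruit the writers of H3K9me3, the mark of silenced chromatin. H3K27ac and H3K4me1 mark active promoters and enhancers. PolII transcribes protein-coding genes and most long non-coding RNAs, while PolIII transcribes tRNAs, 7SK and repeats of the B1 and B2 families. Mouse chromosome 15 carries Myc, a transcription factor gene of cell growth, and beside it the long non-coding RNA gene Pvt1.

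The sequences below come from the mm9 assembly (NCBIM37) and show the DNA under regions to which the results return. The first set is the 200 bases before the start of 5 protein-coding genes of the dense stretches, read in the direction of the gene. Capitals mark the GC box (GGGCGG, or CCGCCC on the other strand) and the CCAAT box (CCAAT, or ATTGG on the other strand).
Yaf2 (chr15:93167367-93167566, minus strand): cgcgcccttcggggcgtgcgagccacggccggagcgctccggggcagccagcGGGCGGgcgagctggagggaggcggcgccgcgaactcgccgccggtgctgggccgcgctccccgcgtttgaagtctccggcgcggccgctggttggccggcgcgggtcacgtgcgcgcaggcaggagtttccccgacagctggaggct
Rhebl1 (chr15:98711836-98712035, minus strand): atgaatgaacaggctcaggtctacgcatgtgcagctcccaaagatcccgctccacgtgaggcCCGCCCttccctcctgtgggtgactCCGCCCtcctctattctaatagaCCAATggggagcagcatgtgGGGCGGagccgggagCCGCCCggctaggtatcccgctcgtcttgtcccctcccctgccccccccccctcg
Tmbim6 (chr15:99223113-99223312, plus strand): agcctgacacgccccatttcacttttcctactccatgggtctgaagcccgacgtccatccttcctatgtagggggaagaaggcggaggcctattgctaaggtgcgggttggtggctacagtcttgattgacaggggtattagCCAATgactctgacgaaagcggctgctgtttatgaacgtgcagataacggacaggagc
Sqle (chr15:59146432-59146631, plus strand): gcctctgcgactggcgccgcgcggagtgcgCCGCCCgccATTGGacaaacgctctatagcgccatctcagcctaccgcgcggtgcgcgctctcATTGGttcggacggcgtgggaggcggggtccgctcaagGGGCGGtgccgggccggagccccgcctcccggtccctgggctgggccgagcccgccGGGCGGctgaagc
Tuba1c (chr15:98860122-98860321, plus strand): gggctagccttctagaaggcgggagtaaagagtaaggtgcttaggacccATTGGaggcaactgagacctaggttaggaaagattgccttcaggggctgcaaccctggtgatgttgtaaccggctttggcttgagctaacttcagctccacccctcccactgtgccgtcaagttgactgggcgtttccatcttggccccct
Rhebl1 had 4 GC boxes and 1 CCAAT box, Sqle had 3 and 2, and Tuba1c had a single CCAAT box and no GC box. Promoters read in the same way but not printed were those of Arf3 and Asap1, with neither box, and Prkag1, with 1 of each. Over all promoters of the same length, a GC box stood in 372 of 797 on chromosome 15 (46.7%) and in 8192 of 21418 on all autosomes (38.2%), and a CCAAT box in 29.5% and 30.3%. A match is a description of letters and not of a bound factor.

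The second set shows PolIII regions. Capitals mark the B box, an internal promoter element of tRNA genes that was searched as GTTCGANNC on both strands of the central 300 bases of each region and is printed in its forward direction.
PolIII control, score 33 (chr15:99498465-99498593, plus strand): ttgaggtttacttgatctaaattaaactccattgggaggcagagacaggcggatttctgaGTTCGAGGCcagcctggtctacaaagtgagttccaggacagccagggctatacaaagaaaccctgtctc
PolIII Kap1 KD, score 29 (chr15:57503022-57503150, plus strand): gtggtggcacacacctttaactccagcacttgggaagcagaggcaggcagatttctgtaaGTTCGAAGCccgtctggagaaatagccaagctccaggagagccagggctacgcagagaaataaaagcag
The gene annotation places no gene at either of them, and no repeat annotation was used here. A B box stood in the centre of 2 of 32 control PolIII regions of chromosome 15 (6.25%, 1.73 to 20.2%) against 4.61% of those on the other autosomes. Most of the control regions on the other autosomes lay on chromosomes 1 to 4. The share without those chromosomes was not computed, so no direction is read from this comparison. Of the Kap1 KD PolIII regions, 1 of 78 held it on chromosome 15 (1.28%, 0.227 to 6.91%) against 55 of 348 elsewhere (15.8%, 12.35 to 20.01%), and over whole regions the shares were 14.1 and 31.0%. The Kap1 KD PolIII regions of this chromosome held these letters in a smaller share than those elsewhere and were wider (median 2734 bp against 1172 bp).

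Chromosome 15 is 103494974 bp long, 4.19% of the autosomes. In 7 of the 8 lists it held more regions per Mb than the 18 other autosomes together. H3K4me1 had 9385 regions there, 90.7 per Mb against 26.2, a ratio of 3.46 (3.39 to 3.54). H3K9me3 had 7111 regions, 68.7 per Mb against 22.6, a ratio of 3.04 (2.97 to 3.12). A mark of enhancers and a mark of silenced chromatin thus had the highest ratios among the lists of standard culture. Densities are per Mb of the mm9 sequence, and the number of copies of each chromosome in these cells was not examined here. KAP1 (870 peaks, ratio 1.74, 1.62 to 1.86) and H3K27ac (3985 regions, ratio 1.77, 1.71 to 1.83) showed the smaller ratios. PolII had 494 control peaks (ratio 2.54, 2.31 to 2.79) and 1494 Kap1 KD peaks (ratio 3.08, 2.92 to 3.25). The 78 Kap1 KD PolIII regions gave the highest ratio of all, 5.13 (3.96 to 6.58).

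In 6 of the lists no other autosome was as dense, although for control PolII chromosome 11 came to 4.76 peaks per Mb against 4.77. For KAP1 chromosomes 11 and 19 were denser (9.29 and 9.26 against 8.41 peaks per Mb). The control PolIII list was the exception, with 32 regions and a ratio of 0.268 (0.183 to 0.379). Most of that list lay on chromosomes 1 to 4, and without them in the comparison its ratio was 2.055. Region numbers absent from that list, described below, made up 77.8% on chromosome 15 against 21.9% on the other autosomes. Their part in the ratio of 0.268 was not tested.

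**Figure D1:**
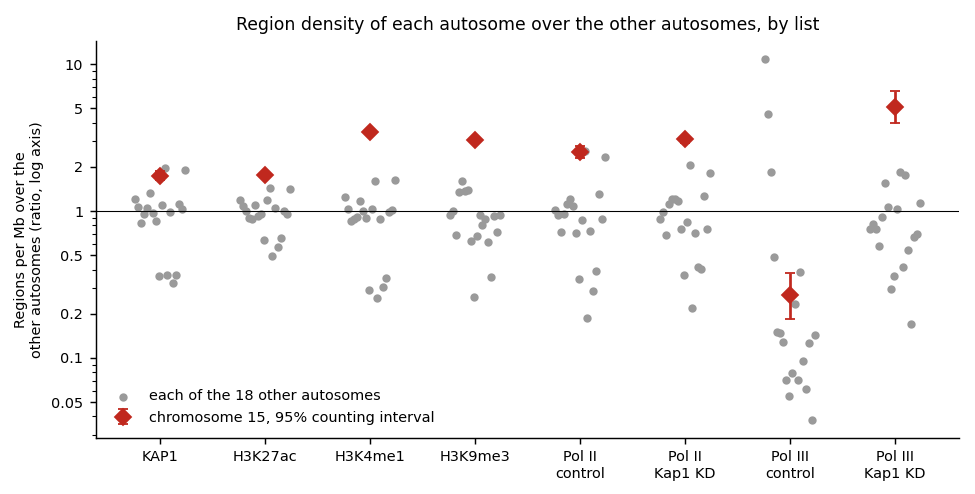
Regions per Mb of each autosome divided by that of the other autosomes (log axis), for the 8 lists. Grey points are the 18 other autosomes, 1 library a list, and red diamonds are chromosome 15 with the 95% counting interval; chromosome 15 lies above all of them for H3K4me1 (3.46) and H3K9me3 (3.04) and within them for control PolIII (0.268).

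The regions of chromosome 15 were also wider in several lists, so that the covered sequence differed more than the counts. H3K4me1 covered 10.5% of the chromosome against 2.47% of the other autosomes, H3K9me3 5.80 against 1.39% and KAP1 1.51 against 0.613%. The median KAP1 peak was 1358 bp wide against 1091 bp, and the median H3K9me3 region 495 against 318 bp. The median H3K4me1 region was narrower (582 against 630 bp), but 3.22% of them were wider than 5 kb against 0.932%, and the 90th percentile of width was 2593 against 2022 bp. Control PolII peaks were nearly alike (961.5 and 922 bp).

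The excess was uneven along the chromosome. The run of 1 Mb bins with the largest summed excess was between 96 and 100.5 Mb long in all lists but control PolIII, for which it was 1 Mb long (from 99 to 100 Mb, 5 regions). Such a run also takes in stretches without an excess, which the zones described below show. A bin was called dense in a list when its count was above the 95th percentile of the bins of the other autosomes. Of the 101 bins of chromosome 15, 45 were dense in H3K4me1 (background 4.81% of other bins), 35 in H3K9me3 (4.98%), 28 in Kap1 KD PolII (4.94%) and 23 in H3K27ac (4.76%). Fewer were dense in control PolII (19, background 4.55%), Kap1 KD PolIII (18, 2.34%) and KAP1 (11, 4.68%), and none in control PolIII (4.63%).

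At least 4 of the 8 lists were dense together in 24 of 101 bins of chromosome 15 (23.8%), against a background of 3.12% of the 2309 other bins. These 24 Mb became 13.5 Mb with 500 kb bins, 5 Mb when at least 6 lists were asked for and 3 Mb at the 99th percentile, against 2.50, 0.650 and 0.347% of other bins. The next chromosome, chromosome 5, had 14 such bins. They formed 14 runs, of which the longest lay at 56 to 62 Mb, upstream of and over Myc. Runs of 3 Mb lay at 36 to 39 Mb and at 97 to 100 Mb, and one of 2 Mb at 63 to 65 Mb. Among the 50 densest bins of all 2410 by the mean log2 ratio over the lists, 16 lay on chromosome 15, and the first of them ranked first.

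**Figure D2:**
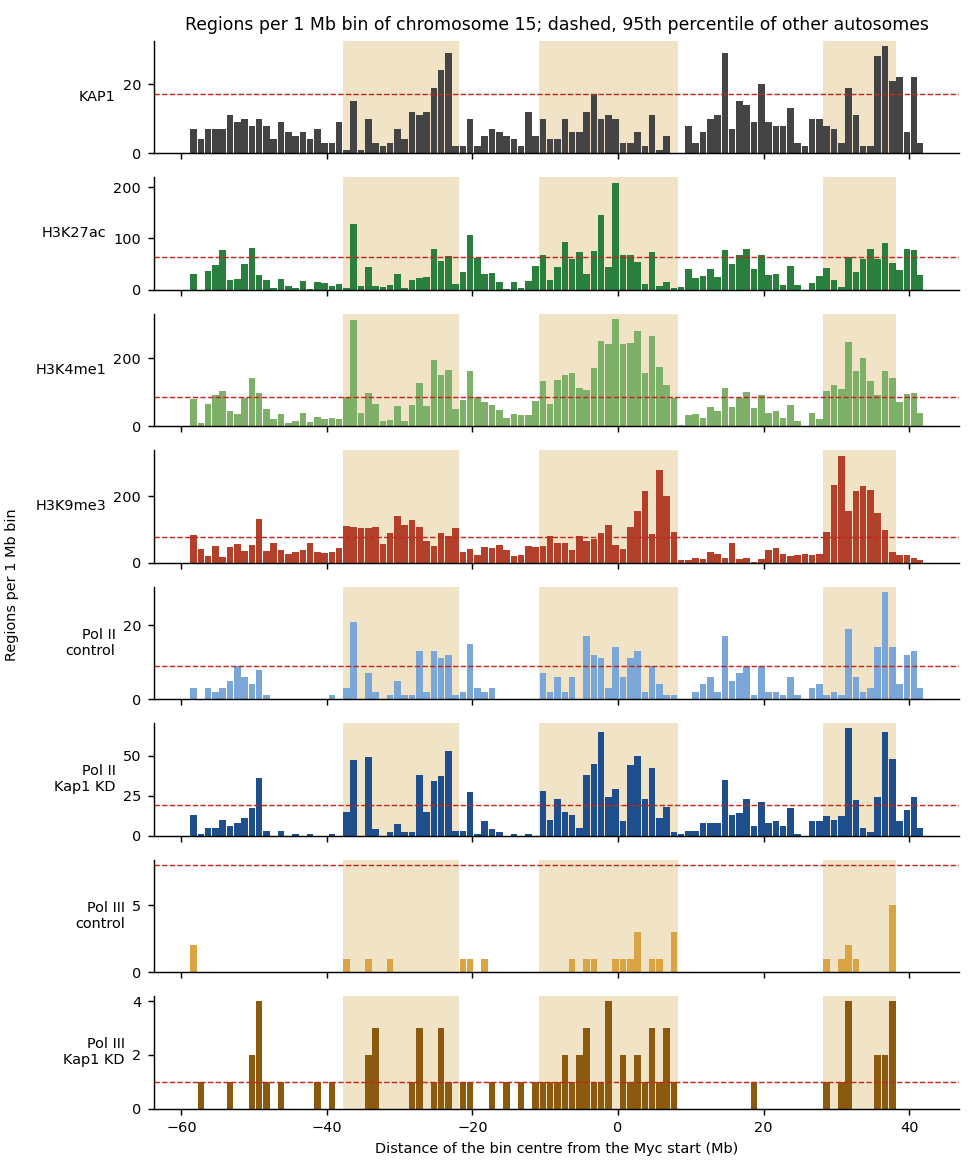
Regions in each 1 Mb bin of chromosome 15 for the 8 lists (vertical axes, counts) against the distance of the bin centre from the start of Myc in Mb. Bars are single libraries, the dashed line is the 95th percentile of bins of the other autosomes and the 3 shaded spans are the dense zones. H3K27ac reaches its highest bar, 209 regions, in the bin of Myc. H3K9me3 is highest (322) in the last shaded span, below the highest bin of the other autosomes (541).

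The density changed over short distances at several points. At 24.8 Mb, where the 1 Mb before held 25 H3K4me1 regions and the 1 Mb after held 356, the step was the largest of this mark on any autosome. Over the same point H3K27ac went from 3 to 122, Kap1 KD PolII from 1 to 54 and H3K9me3 from 80 to 146 regions. At 70 Mb the change ran the other way, with 82 H3K4me1 regions before and 3 after, and 93 H3K9me3 regions before and 7 after. H3K27ac counted 3 and 5 regions beside that point. At 90 Mb H3K4me1 went from 22 to 103 and H3K9me3 from 26 to 93 over 1 Mb, while H3K27ac counted 26 and 42. Over the nearest 0.3 Mb to each side of 90 Mb the marks parted, with H3K4me1 at 1 and 16, H3K27ac at 1 and 23 and H3K9me3 at 12 and 2 regions. The largest H3K9me3 step of the chromosome, from 82 to 277 regions at 67.1 Mb, ran against the other marks. H3K27ac went from 80 to 4 there and H3K4me1 from 260 to 174. Larger H3K9me3 steps lay on other autosomes, among them one from 24 to 541 regions on chromosome 4.

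Read from these counts, and so chosen on the same data, the chromosome fell into 7 zones, of which those at 24 to 40, 51 to 70 and 90 to 100 Mb were dense in most lists. Together they made up 45 Mb, or 43.5% of the length, and held 73.5% of the H3K9me3 regions, 71.5% of the Kap1 KD PolII peaks, 68.2% of the H3K4me1 regions and 48.0% of the KAP1 peaks. H3K4me1 was 5.43 times as dense there as on the other autosomes and 1.95 times on the rest of the chromosome. For H3K9me3 the ratios were 5.15 and 1.43, and for Kap1 KD PolII 5.07 and 1.55. The rest of the chromosome therefore still had more regions per Mb than the other autosomes in all lists but control PolIII. It includes the zone from 100 Mb to the end, which had the highest KAP1 (3.14), H3K27ac (2.93) and control PolII (4.87) ratios of the 7. For KAP1 the zone at 70 to 90 Mb (2.02) was also as dense as that at 24 to 40 Mb (2.01) and denser than that at 51 to 70 Mb (1.43). For these lists the 3 zones called dense are thus not the densest.

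The 3 dense zones differed among themselves. The zone at 51 to 70 Mb, which holds Myc, had the highest H3K4me1 (179.5 per Mb, ratio 6.86) and Kap1 KD PolIII (31 regions, ratio 11.1, 7.43 to 16.1) densities of the 7, with a KAP1 ratio of 1.43 (1.19 to 1.70). The zone at 90 to 100 Mb had the highest H3K9me3 density, 174.5 per Mb (ratio 7.73, 7.37 to 8.11), and that mark covered 22.4% of it. The zone at 24 to 40 Mb had 94.8 H3K4me1 and 97.2 H3K9me3 regions per Mb.

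Gene density did not follow the zones. The dense zones held 4.5, 4.16 and 11 protein-coding genes per Mb, against 8.71 on the other autosomes, whereas the zone at 70 to 90 Mb held 17.1. In that gene-rich zone H3K9me3 had a ratio of 0.973 (0.884 to 1.07) and Kap1 KD PolIII a single region. The stretch from 100 Mb to the end of the chromosome had the most genes (30.6 per Mb), with a KAP1 ratio of 3.14 and an H3K9me3 ratio of 0.888 (0.692 to 1.12). GC content was 41.6, 41.1 and 43.7% in the dense zones and 41.9% over the other autosomes.

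**Figure D3:**
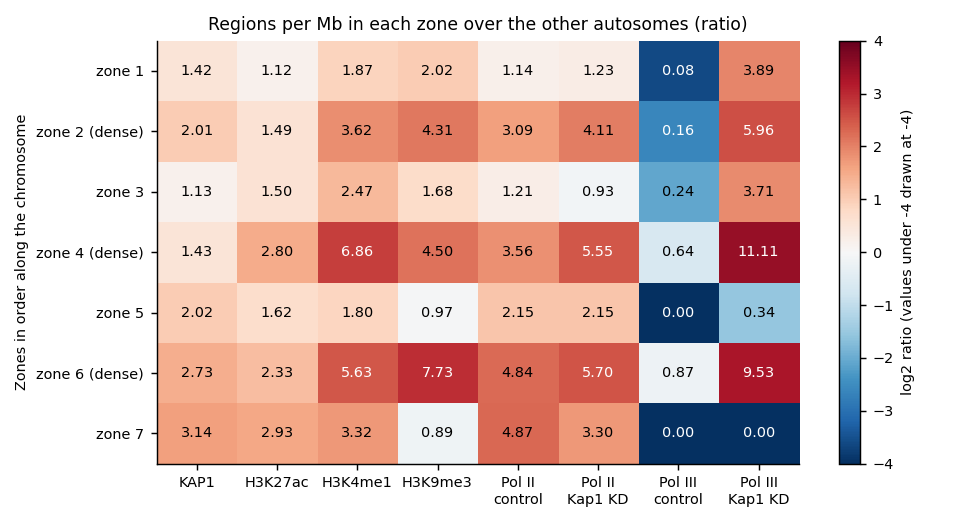
Ratio of regions per Mb in each of the 7 zones of chromosome 15 to that of the other autosomes, printed in each cell and coloured by its log2, with lists across and zones down in order along the chromosome. Zones 2, 4 and 6 are the dense ones; the largest ratios are those of Kap1 KD PolIII in zone 4 (11.11) and zone 6 (9.53), and H3K9me3 is at 0.97 in zone 5.

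Over the 101 bins of chromosome 15 the counts of H3K4me1 and H3K9me3 moved together (Spearman's rho 0.467, against a median of 0.187 within the other autosomes). KAP1 and H3K9me3 did not, with a rho of -0.0702 against a median of 0.422, and all 18 other autosomes had a higher value for that pair. H3K4me1 followed gene density less closely than on any other autosome (rho 0.278 against a median of 0.621). So did H3K9me3 (-0.162 against 0.195) and control PolIII (-0.129 against 0.243). KAP1 (0.626 against 0.583), H3K27ac (0.53 against 0.577) and control PolII (0.642 against 0.566) stayed near their medians. Kap1 KD PolII came to 0.565 against 0.658, and Kap1 KD PolIII to -0.0618 against 0.212. Neighbouring bins share libraries, base composition and depth, so these values are descriptions without a test.

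PolII and H3K4me1 regions of the dense zones lay near gene starts in smaller shares than elsewhere. The centres of 86 of 1069 Kap1 KD PolII peaks of the dense zones lay within 1 kb of the annotated start of a protein-coding gene (8.04%, 6.56 to 9.83%), against 31.8% on the rest of the chromosome and 35.8% on the other autosomes. For control PolII the shares were 22.5, 42.6 and 49.8%, and for H3K4me1 1.55, 6.60 and 8.92%. KAP1 differed little, at 20.6% (17.0 to 24.7%) in the dense zones, 25.9% on the rest and 25.0% on the other autosomes. H3K4me1 regions that overlapped H3K9me3 made up 18.7% of those in the dense zones, 2.98% on the rest of the chromosome and 6.34% elsewhere, and those with H3K27ac made up 24.1, 42.8 and 52.5%. A denser list overlaps others more often, and its part in these shares was not tested.

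**Figure D4:**
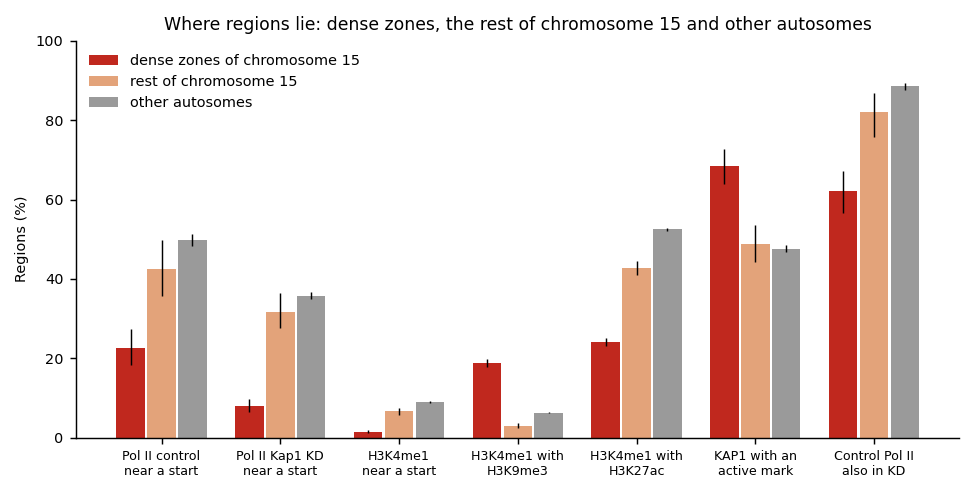
Share of regions (%) with the centre within 1 kb of a protein-coding gene start or overlapping another list by at least 1 bp (an active mark is H3K27ac or H3K4me1), for the dense zones, the rest of chromosome 15 and the other autosomes. Bars are shares in single libraries and lines the 95% Wilson intervals; Kap1 KD PolII lies near a start in 8.04% of cases in the dense zones and 35.8% on the other autosomes, and H3K4me1 overlaps H3K9me3 in 18.7 and 6.34%.

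KAP1 peaks of chromosome 15 overlapped H3K9me3 in 409 of 870 cases (47.0%, 43.7 to 50.3%) against 39.1% on the other autosomes, and an active mark (H3K27ac or H3K4me1) in 507 cases (58.3%, 55.0 to 61.5%) against 47.6%. Conversely H3K9me3 regions carried KAP1 in 6.99% of cases against 9.38%. Wide KAP1 peaks stood out in number: 24 of the 62 autosomal peaks over 5 kb (38.7%) lay on chromosome 15, all 24 in the dense zones, and no other chromosome had more than 8. All 24 overlapped H3K4me1, 22 overlapped H3K27ac and 14 overlapped H3K9me3. The widest spanned 12263 bp at chr15:59474046-59486308 over Trib1, a pseudokinase gene that bears on liver lipid metabolism. Others lay over Sqle (5106 bp), Zfat (6291 bp) and Asap1 (6945 and 5200 bp) and, named here after their values were seen, over Klf10 (6326 bp, score 521.5), Prickle1 (5061 bp, score 1266) and Lima1 (8007 bp). The Lima1 peak overlapped all 7 other lists.

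The 3 KAP1 peaks of the chromosome with the highest score were tied at 3100, a value that 149 peaks of the other autosomes shared, so they are not ranked among themselves. They stood over Trappc9 (2608 bp), Scrt1 (2525 bp), a repressor of the Snail family, and C1ql4 (2733 bp), each in H3K9me3 and in no other list. Of these 3, only the C1ql4 peak was in a dense zone.

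Around Myc H3K27ac was at its densest. The bin at 61 to 62 Mb held 209 H3K27ac regions, ahead of 145 in the next bin of the chromosome (59 to 60 Mb) and of at most 134 on the other autosomes. Its 316 H3K4me1 regions stood beside 313 in the bin at 25 to 26 Mb and at most 201 on the other autosomes. H3K27ac covered 34.3% and H3K4me1 51.4% of that 1 Mb, and H3K9me3 4.91%. The widest H3K27ac region of the chromosome, 23900 bp at chr15:61275479-61299378, lay in this bin over no annotated gene and overlapped KAP1, H3K4me1, H3K9me3 and PolII of both conditions. The second widest, of 22580 bp, lay over Oxr1, a gene of the oxidative stress response, in the zone at 40 to 51 Mb, and the third (22016 bp, chr15:62882196-62904211) again over no annotated gene.

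Myc itself (chr15:61816946-61821929, plus strand) had H3K27ac over its promoter and neither KAP1 nor PolII. Pvt1 (chr15:61869542-62209651, plus strand), the non-coding gene downstream of it, held 58 H3K27ac, 88 H3K4me1, 11 H3K9me3 and 2 KAP1 regions. It overlapped 13 control and 5 Kap1 KD PolII peaks. The strongest control peak there was 16690 bp wide (chr15:61978374-61995063, score 484), and the strongest Kap1 KD peak was 17935 bp wide (chr15:61988496-62006430, score 1109). Their centres lay 169.8 and 180.5 kb downstream of the Myc start. Between Myc and Pvt1 the Kap1 KD list held 7 peaks and the control list none, the nearest centred 14.7 kb downstream of the Myc start (3132 bp, score 126). Scores come from separate lists of unknown depth and are not compared as levels.

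**Figure D5:**
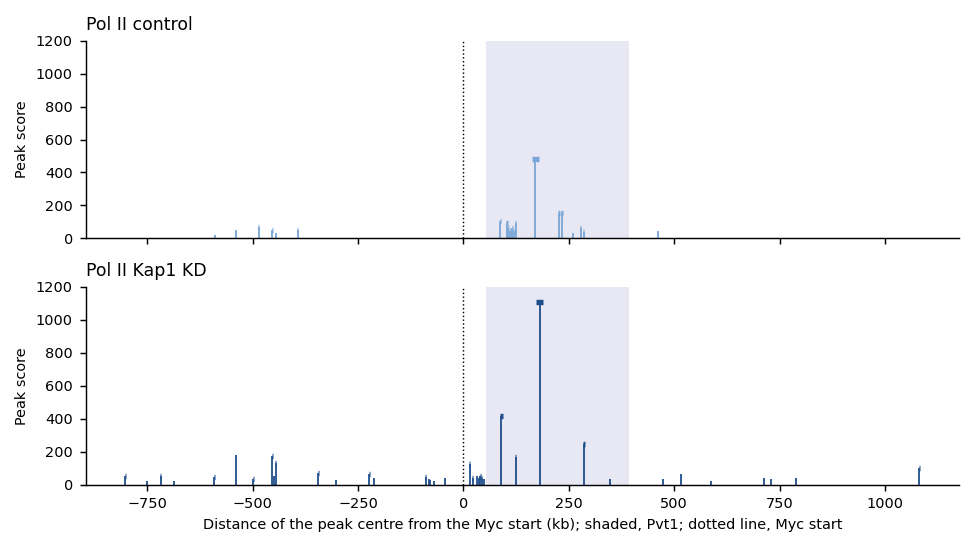
PolII peaks around Myc, control above and Kap1 KD below, as the deposited peak score against the distance of the peak centre from the Myc start in kb. Each line is 1 peak of a single library, its cap as wide as the peak, the dotted line is the Myc start and Pvt1 is shaded; the tallest peak lies inside Pvt1 in both (scores 484 and 1109), and 7 Kap1 KD peaks lie between Myc and Pvt1, where the control has none.

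PolII regions over a promoter, here 250 bp to each side of the annotated gene start, were found for 181 of 797 protein-coding genes of chromosome 15 in the control (22.7%, 19.9 to 25.8%; 13.7% over all autosomes) and 270 under Kap1 KD (33.9%, 30.7 to 37.2%; 24.2%). KAP1 lay over 237 promoters (29.7%; 16.4%), H3K27ac over 235 (29.5%; 20.6%), H3K4me1 over 172 (21.6%; 12.2%) and H3K9me3 over 93 (11.7%; 5.18%). Neither PolIII list had a region over any of the 797 (0.36% and 0.14% over all autosomes for control and Kap1 KD), which allows a share of up to 0.480% (Wilson). H3K9me3 lay over 62 of the 261 promoters in the dense zones (23.7%, 19 to 29.3%) and 5.78% of those on the rest of the chromosome. In the zone at 70 to 90 Mb, with 342 genes, KAP1 lay over 23.4% and H3K9me3 over 4.97% of promoters.

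The densest single bin of the chromosome, at 93 to 94 Mb, held Yaf2 (chr15:93114709-93167366), whose product belongs to Polycomb complexes, Gxylt1, a xylosyltransferase gene, and Zcrb1, a gene of the minor spliceosome. All 3 promoters carried KAP1 and H3K27ac, and that of Yaf2 also carried H3K4me1 and PolII of both conditions. The bin counted 247 H3K4me1, 155 H3K9me3, 67 Kap1 KD PolII and 19 control PolII regions. In the next densest bin, at 98 to 99 Mb with 39 genes, Arf3, Prkag1 (a subunit of AMP-activated kinase) and Rhebl1 each had KAP1, H3K27ac, H3K4me1 and both PolII lists over the promoter. The same 5 lists met over Tmbim6, a regulator of cell death in the endoplasmic reticulum, at 99 to 100 Mb. Genes of the leading bins were picked as those with the most lists over the promoter. The number of lists they carried therefore follows from the pick and does not describe the other genes of a bin.

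Of the other leading bins, the one at 64 to 65 Mb held Adcy8 and Asap1. Adcy8, an adenylate cyclase gene mainly of nervous tissue, had 58 H3K9me3 and 55 H3K4me1 regions over its body and KAP1 and H3K9me3 over its promoter. Its neighbour Asap1, which encodes a GTPase-activating protein, had KAP1, H3K27ac, H3K4me1 and control PolII over the promoter, 81 H3K4me1 regions over the gene, 13 control and 43 Kap1 KD PolII peaks. At 25 to 26 Mb Basp1, a membrane protein gene of neurons, had KAP1 and H3K9me3 over the promoter, while Zfp622 had KAP1, H3K27ac and both PolII lists.

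Of the 26 listed genes around Myc, 12 had H3K27ac over the promoter (46.2%, against 20.6% over all autosomes). KAP1 lay over 10 (38.5%, against 16.4% over all autosomes), H3K4me1 over 10 (38.5%, 12.2%), H3K9me3 over 5 (19.2%, 5.18%), control PolII over 9 (34.6%, 13.7%) and Kap1 KD PolII over 10 (38.5%, 24.2%). The shares were near those of the 79 genes of the zone at 51 to 70 Mb, which were 43.0% for H3K27ac, 32.9% for KAP1, 36.7% for H3K4me1, 16.5% for H3K9me3, 34.2% for control PolII and 38.0% for Kap1 KD PolII. Ndrg1, a stress-response gene, carried 5 lists at its promoter. Sqle, which encodes squalene epoxidase of cholesterol synthesis, Phf20l1, Asap1, Chrac1 and Ptk2, the gene for focal adhesion kinase, carried 4 each. Kcnq3, a potassium channel gene, had none there but 65 H3K9me3 and 61 H3K4me1 regions over its body, and Tg, the thyroglobulin gene, had none there and 48 H3K4me1 regions. The Gsdmc family showed another pattern, with H3K9me3 over 4 of its 5 promoters (Gsdmc2, Gsdmcl1, Gsdmc3 and Gsdmc4) and KAP1 over none.

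All 9 genes of the translation list, among them the ribosomal protein genes Rpl3, Rpl8, Rpl30 and Rpl37 and the initiation factor genes Eif3d, Eif3e, Eif3h and Eif3l, had H3K27ac over the promoter (20.6% over all autosomes), 8 had control PolII (13.7%), 7 had Kap1 KD PolII (24.2%), 5 had KAP1 (16.4%) and none had H3K9me3 (5.18%). Pabpc1, which encodes a poly(A)-binding protein, was the gene without PolII in either condition, over its promoter or its body. Rpl3, in the zone at 70 to 90 Mb, lay under the highest-scoring control PolII peak of the chromosome (8648 bp, score 662) and the second of the Kap1 KD list (8974 bp, score 1370). The control peak over Rpl30 and Matn2 (12555 bp, score 568) had no counterpart over the Rpl30 promoter under Kap1 KD. Poldip3 lay under the second highest control peak (score 601).

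Among 13 growth and chromatin genes, 12 had KAP1 over the promoter (16.4% over all autosomes), 10 H3K27ac (20.6%), 8 control PolII (13.7%) and 11 Kap1 KD PolII (24.2%), and none had H3K9me3 (5.18%). The tubulin genes Tuba1a, Tuba1b and Tuba1c all carried KAP1, H3K27ac and H3K4me1. Tuba1a and Tuba1c also had PolII under Kap1 KD and none listed in the control, in a zone (90 to 100 Mb) where 147 control numbers are absent beside 91 listed peaks. The peak over Tuba1c (12446 bp, score 1294) was the third highest of the Kap1 KD list. Rad21, a cohesin gene, carried 5 lists. Cbx5, the gene for heterochromatin protein HP1 alpha, and Hnrnpa1, an RNA-binding protein gene that starts beside it, each carried KAP1, H3K27ac and both PolII lists.

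Of 27 liver function genes, 6 had H3K27ac over the promoter (22.2%, against 20.6% over all autosomes), 4 KAP1 (14.8%, 16.4%), 2 control PolII (7.41%, 13.7%) and 4 Kap1 KD PolII (14.8%, 24.2%). These shares were near or below those of all promoters, and below those of chromosome 15 (29.5, 29.7, 22.7 and 33.9% in the same order). Lifr, a cytokine receptor gene, held 15 H3K27ac and 13 H3K4me1 regions and PolII of both conditions at its promoter. Srebf2, the transcription factor of cholesterol synthesis, had KAP1, H3K27ac and Kap1 KD PolII. The 9 listed Cyp2d genes of drug metabolism and Ppara had no region of any list over the promoter. Slc38a4, an amino acid transporter gene in the zone at 90 to 100 Mb, had H3K9me3 over its promoter and 13 such regions over its body.

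Gene clusters outside the dense zones differed in their promoters. Among 24 keratin genes, Krt8 and Krt18, the keratins of hepatocytes, were the only ones with H3K27ac or PolII over the promoter, in both conditions. These 2 make up 8.33%, against 20.6% for H3K27ac, 13.7% for control PolII and 24.2% for Kap1 KD PolII over all autosomes, and no keratin promoter had KAP1 (16.4%). H3K4me1 lay over 3 of the 24 (12.5%, against 12.2% over all autosomes and 21.6% on chromosome 15). Of 14 Ly6 family genes, Ly6e, Ly6a and Ly6c1 had H3K27ac and both PolII lists and the other 11 had none of these, while none had KAP1 (16.4% over all autosomes) or H3K9me3 (5.18%) at the promoter. Those 3 make up 21.4%, against 20.6% for H3K27ac, 13.7% for control PolII and 24.2% for Kap1 KD PolII over all autosomes. On chromosome 15 the shares of these lists were 29.5, 22.7 and 33.9%. Of 9 Hoxc genes, Hoxc13 and Hoxc9 had KAP1 (22.2%, against 16.4% over all autosomes and 29.7% on chromosome 15). Hoxc12 had H3K9me3 (11.1%, against 5.18 and 11.7%), and none had an active mark or PolII. These counts are too small to set the family apart.

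The widest histone regions of the chromosome all lay in the zone at 90 to 100 Mb, apart from H3K27ac. An H3K4me1 region of 42858 bp (chr15:96232025-96274882) overlapped Arid2, a chromatin remodelling gene, and Scaf11, and 2 more of 35293 and 32229 bp lay over Ano6. All 3 overlapped both H3K27ac and H3K9me3. The widest H3K9me3 region, 26687 bp, lay over Slc38a1 (chr15:96452264-96478950) and overlapped H3K27ac and H3K4me1, and one of 17095 bp lay over Dbx2, a homeobox gene of the nervous system.

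PolII peaks were 3.02 times as many under Kap1 KD as in the control on chromosome 15 (1494 against 494, 2.73 to 3.35), compared with 2.49 times (2.41 to 2.58) on the other autosomes. The ratio was 3.44 (3.03 to 3.91) in the dense zones and 2.32 (1.95 to 2.78) on the rest of the chromosome, and it reached 3.89 (3.19 to 4.76) at 51 to 70 Mb. The other autosomes ranged from 2 (chromosome 19) to 3.70 (chromosome 14). With 1 library a condition and unknown depth, the knockdown and the library cannot be told apart. The numbering of the regions lacks 285 control and 423 Kap1 KD PolII numbers on chromosome 15. With absent numbers counted as regions, the ratio was 2.46 on chromosome 15, 2.31 on the other autosomes and 2.53 in the dense zones. By zone it was then 2.98 at 24 to 40 Mb, 3.08 at 51 to 70 Mb and 1.80 at 90 to 100 Mb. The last of these lay below the other autosomes, so a higher ratio was not common to the dense zones. Control PolII peaks were found again under Kap1 KD in 343 of 494 cases (69.4%, 65.2 to 73.3%), against 88.5% (87.6 to 89.4%) on the other autosomes, and in 62.1% of cases in the dense zones. Thus the 2 lists had more peaks on this chromosome and shared a smaller part of them.

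PolIII behaved in another way. On chromosome 15 there were 78 regions under Kap1 KD and 32 in the control (ratio 2.44, 1.596 to 3.802), compared with 348 and 2732 on the other autosomes (ratio 0.127) and 259 and 252 (ratio 1.03, 0.861 to 1.23) without chromosomes 1 to 4. The numbering of the regions, given below, lacks 112 numbers in the control and 78 under Kap1 KD on chromosome 15, and with these counted the ratio was 1.08. Among the regions in the upper class by score it was 5.57. Median scores on chromosome 15 and on the other autosomes were 22.5 and 29 in the control, and 22.5 and 22 under Kap1 KD. The part of this difference in the 5.57 was not tested. Of the 78, 4 overlapped a control region (5.13%, 2.01 to 12.5%), against 44.5% elsewhere, whereas 4 of the 32 control regions overlapped a Kap1 KD region (12.5%, 4.97 to 28.1%; 42.9% in the upper class by score), against 6.66% elsewhere. A KAP1 peak lay over 6 of the 32 control regions (18.75%, 8.89 to 35.3%), against 11.6% elsewhere, and over 5 of the 78 Kap1 KD regions (6.41%, 2.77 to 14.1%), against 43.4%. The 6.66 and 11.6% are shares of the 2732 control regions elsewhere, most of which lay on chromosomes 1 to 4. Shares without those chromosomes were not computed, so no direction is read from either. None of the 78 had its centre within 1 kb of a protein-coding gene start, against 12.4% elsewhere, and 59 of the 78 lay in the dense zones. H3K4me1 overlapped 38 of the 78 (48.7%, 37.9 to 59.6%), against 29.0% elsewhere, and H3K9me3 24 (30.8%, 21.6 to 41.7%), against 21.3%.

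The PolIII region with the second highest score in both lists lay over an annotated copy of 7SK, the RNA that holds back transcription elongation, as a control region of 156 bp (chr15:93064812-93064967) and a Kap1 KD region of 13258 bp. Copies of 7SK can be much alike in sequence, and whether reads of another copy were placed on this one was not examined. The third Kap1 KD region, 16413 bp at chr15:62537406-62553818, lay outside genes with H3K27ac, H3K4me1 and Kap1 KD PolII. The third control region, 2582 bp, lay within Pvt1.

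The region numbers in the polymerase lists were not consecutive. On chromosome 15 a total of 285 numbers were absent between the 494 control PolII peaks (36.6%, against 24.04% on the other autosomes), and 112 between the 32 control PolIII regions (77.8%, against 21.9%). Under Kap1 KD the shares absent were 22.1% for PolII, against 17.9%, and 50% for PolIII, against 48.4%. In the zone at 90 to 100 Mb 147 numbers were absent beside 91 control PolII peaks, and 85 beside 10 control PolIII regions. In the zone at 51 to 70 Mb 95 were absent beside 127 control and 189 beside 494 Kap1 KD PolII peaks. In the zone at 70 to 90 Mb 2 were absent beside 81 control PolII peaks. Regions with those numbers were not analysed here, and their part in the density and in the presence or absence of a peak at single genes was not tested.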

How the data were processed

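ChIP-Seq was performed on Hepa 1-6 cells, and 8 of the 13 libraries came with a list of regions; the 5 inputs were not analysed here. The submitters' processing notes name Bowtie and the mm9 assembly. Per the study's methods the authors used MACS, with total input as background, for KAP1 and PolII, and ChIP-Part for the histone marks, while the PolIII caller is not given in the sources used here. The deposited KAP1, PolII and PolIII lists carry a score per region, whose meaning for PolIII is likewise not given, and the histone mark lists carry positions alone. No file gives read numbers, so depth is unknown and the precision of each value rests on the number of regions.

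Positions were converted to 1-based coordinates, and a region was assigned to a 1 Mb bin by its centre. Densities were compared with the 18 other autosomes, and a bin was dense above their 95th percentile. Genes came from GENCODE M1, a promoter was 250 bp to each side of the annotated start, and overlap was at least 1 bp. As each group was 1 library, no test was made, and intervals cover counting error only. Bins were ranked by the mean log2 ratio with a pseudocount of 1 region. Named were members of the gene lists, up to 3 genes with the most lists over the promoter in each of the 5 leading bins, and genes under the 3 highest-scoring peaks or 3 widest regions of a list. Other genes are marked as named after their values were seen. One PolIII region that this rule selects is not reported here. The members and lists were chosen with earlier results of these data known, and the zone edges were set at whole Mb from the counts themselves. Alternatives were other comparison autosomes, bin sizes, percentiles, merging, upper score or width classes, overlap rules and promoter widths. The counting code was tested on simulated data. Python 3.11.15, NumPy 2.4.6, SciPy 1.17.1 and matplotlib 3.10.9 were used.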

Additional observations from a re-analysis of the deposited data

How the results depend on the processing

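Of 99 alternative values, 60 stayed within their counting interval, 36 moved outside it and 3 changed direction, all 3 of them for control PolIII. The cause of these moves was not tested. Against the median autosome the control PolIII ratio was 1.971, and without chromosomes 1 to 4 in the comparison it was 2.055 by count and 2.311 by covered sequence, while the upper class of regions by score gave 0.1197. Per protein-coding gene the ratios were 1.968 for KAP1, 1.999 for H3K27ac, 3.917 for H3K4me1, 3.442 for H3K9me3, 2.87 for control PolII and 3.482 for Kap1 KD PolII. Without chromosomes 1 to 4, H3K27ac came to 1.829, H3K4me1 to 3.641 and H3K9me3 to 3.14, and by covered sequence H3K27ac came to 2.578 and H3K4me1 to 4.568. In the wider regions of each mark the ratios were 1.922, 3.252 and 4.139 for H3K27ac, H3K4me1 and H3K9me3. For H3K4me1 the median autosome gave 3.287 and merging regions less than 1 kb apart 3.386.

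Shared dense bins of 24 Mb became 13.5 Mb with 500 kb bins, 3 Mb at the 99th percentile and 5 Mb when at least 6 of 8 lists were asked for. The Kap1 KD to control ratio of PolIII was 5.571 in the upper class by score and 1.083 with absent numbers counted as regions, which gave 2.461 for PolII. With at least 0.5 of the peak covered, KAP1 lay in H3K9me3 in 34.02%, with an active mark in 40.11% and with control PolII in 12.41% of cases, and control PolII was found under Kap1 KD in 62.75%. With regions within 1 kb counted, the active mark share was 64.48% and the control PolII share 73.48%. Among peaks in the upper class by score, KAP1 lay in H3K9me3 in 57.21% and with an active mark in 51.86%, control PolII was found under Kap1 KD in 79.84% and control PolIII in 42.86%. With promoters of 1 kb to each side, H3K27ac lay over 43.91%, H3K4me1 over 55.46% and H3K9me3 over 15.31%. The count with absent numbers, the covered-sequence comparison without chromosomes 1 to 4, the zones and the 500 kb run of largest excess were added after seeing the data. No paired analysis was possible because each group was 1 library and no result came from a test. Unknown depth limits each comparison between lists.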

Other observations

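Chromosomes 9, 12, 14 and 16 lay at the other end of the scale from chromosome 15. Their KAP1 densities were 0.364, 0.368, 0.325 and 0.368 times those of the remaining autosomes, and their H3K4me1 densities 0.288, 0.255, 0.302 and 0.351 times. For control PolII the ratios were 0.343, 0.186, 0.285 and 0.392. Chromosomes 11 and 19 were dense in KAP1 (1.95 and 1.90), H3K4me1 (1.60 and 1.63) and control PolII (2.56 and 2.35), but not in H3K9me3 (0.937 and 0.942), whereas chromosome 15 was dense in that mark as well. The counts of Kap1 KD PolIII along chromosome 15 followed those of H3K4me1 (Spearman's rho 0.499 over 101 bins) and H3K9me3 (0.406), above all 18 other autosomes for both pairs, as a description over bins of the same libraries.

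The highest-scoring Kap1 KD PolII peak of the chromosome lay at chr15:85494398-85517394, 22997 bp wide with a score of 1556, over no annotated gene, and overlapped H3K27ac, H3K4me1 and control PolII.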
